A study of Mus musculus with 10 samples.

Results

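RNA-seq of sorted splenic plasma cells was read for 8 genes of apoptotic execution and of its inhibition: the caspase genes Casp8, Casp9 and Casp12, the inhibitor of apoptosis genes Birc2, Birc3 and Xiap, the death receptor gene Fas and the caspase-8 regulator gene Cflar. They were taken by their Ensembl identifiers, matched to symbols in GENCODE release M21 on build GRCm38, and make up 8 of the 47719 genes in the files. The study holds 10 mouse libraries, 5 of IgM plasma cells and 5 of IgG1 plasma cells. Both groups came from congenically marked donor B cells with 3 alleles: S1PR2-CreERT2, a tamoxifen-inducible Cre driven by S1PR2 and so active mainly in germinal centre B cells; Ai14, which gives tdTomato after Cre has acted; and B1-8germ, a germline-form heavy chain that binds the hapten NP with a lambda light chain. The hosts were wild type and were immunised with NP-CGG/alum at day 0, with tamoxifen given at day 5 and again at day 6. Donor plasma cells positive for tdTomato were sorted by isotype from the spleen at day 10. The sources used here give neither age nor sex of the mice, and do not say if libraries came from separate mice. All p-values below therefore reflect only the scatter among these samples, part or all of which could be technical.

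Caspases are proteases that are made as inactive precursors. Fas, once bound by its ligand, gathers the adaptor FADD and procaspase-8 into a complex in which caspase-8 is activated, and Cflar encodes c-FLIP, a caspase-8 relative without catalytic activity that controls this step. Caspase-9 is activated on APAF1 after mitochondria release cytochrome c, XIAP binds and inhibits caspase-9 and the executioner caspases, and cIAP1 and cIAP2, the products of Birc2 and Birc3, are ubiquitin ligases that act at TNF receptor family complexes. In plasma cells, whose lifespan depends on survival signals, both routes to apoptosis have been studied as limits on survival.

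The IgG1 libraries listed fewer genes than the IgM libraries at a depth that was as high or higher in most of them. Estimated from the steps between low values, IgM depth was 26900000 to 31300000 fragments and IgG1 depth 26500000 to 38500000. Values above 0 were listed for 15121 to 15800 genes in IgM and for 13286 to 13961 in IgG1 libraries. All 7 plasma cell markers examined had a mean of at least 1 FPKM (fragments per kilobase of transcript, scaled to the mapped fragments of the library), but their levels differed between the groups. Tnfrsf17, which encodes the survival receptor BCMA, was at 138 ± 9.71 FPKM in IgM and 48.3 ± 3.79 in IgG1 cells (SD, n = 5 each; log2 difference -1.49, limma adjusted p = 1.42e-10). Jchain, Prdm1 and Slamf7 were lower in IgG1 cells too (log2 differences -0.88, -0.86 and -0.59), with no overlap of the groups, while Xbp1 was slightly higher (0.13). Sdc1 and Irf4 were slightly lower, with overlap of the groups (log2 differences -0.13 and -0.24, limma adjusted p = 0.0468 and 0.0496). Among B cell markers, Ms4a1 was plainly detected, at 53.7 to 76.4 FPKM in IgM and 35.4 to 51.2 in IgG1 libraries, while Pax5 did not exceed 0.335 FPKM in any library. The 6 T cell markers summed to 1.69 to 4.49 and 0.958 to 3.80 FPKM, with Trac lower in IgG1 cells (2.37 ± 1.03 and 0.201 ± 0.288 FPKM, limma adjusted p = 0.000341), Cd4 higher (0.280 ± 0.274 and 1.87 ± 0.957 FPKM, limma adjusted p = 0.00458) and Cd3e near 0. The 8 myeloid markers summed to 30.9 to 37.8 FPKM in IgM and 13.6 to 20.8 in IgG1 libraries, most of it Cd68 (31.2 ± 3.11 and 12.9 ± 1.71 FPKM), with S100a8 and Itgax at 0 in every library. The lower sum came from Cd68, since the means of Lyz2, Csf1r, Itgam and C1qa were higher in IgG1 cells, at no more than 2.55 FPKM in any library. Of these, Itgam had groups that did not overlap but did not pass (limma adjusted p = 0.069). The 4 NK cell markers summed to at most 2.28 FPKM, the 4 erythroid markers to at most 4.62 and the 4 stromal or endothelial markers to at most 7.77, most of it Pecam1. The part of these markers and of other cells in the differences below was not tested. In such bulk samples a smaller share of cells with a transcript and less of it per cell cannot be told apart.

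Of the 8 genes, 4 were lower in IgG1 than in IgM plasma cells, and 0 were higher. Birc2, Casp8, Cflar and Birc3 passed the test (limma on log2 of FPKM plus 1, adjusted p under 0.05 over all 9900 genes tested), and for each of these 4 the 5 IgG1 values lay below all 5 IgM values. Fas, Xiap and Casp9 did not pass, and Casp12, with a mean below the filter of 1 FPKM, was not tested. Over all tested genes 38.3% passed, 20.2% as lower and 18.1% as higher in IgG1 cells, and 26.3% had groups that did not overlap, 13.3% with IgG1 lower and 13.1% with IgG1 higher. Over all genes 1791 were called higher and 2001 lower, which quantile normalization turned to 2182 and 1510, moving the median log2 difference from -0.05 to 0.06. The 4 calls stayed lower and past the threshold under that scaling too. The median log2 difference (IgG1 minus IgM) of the 7 tested genes was -0.39, beside -0.05 over all tested genes. That median is the value of Xiap, which did not pass. With 7 genes in a comparison where more than 3 in 10 genes passed, these counts are a description of the genes and not a property of the group.

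**Figure D1:**
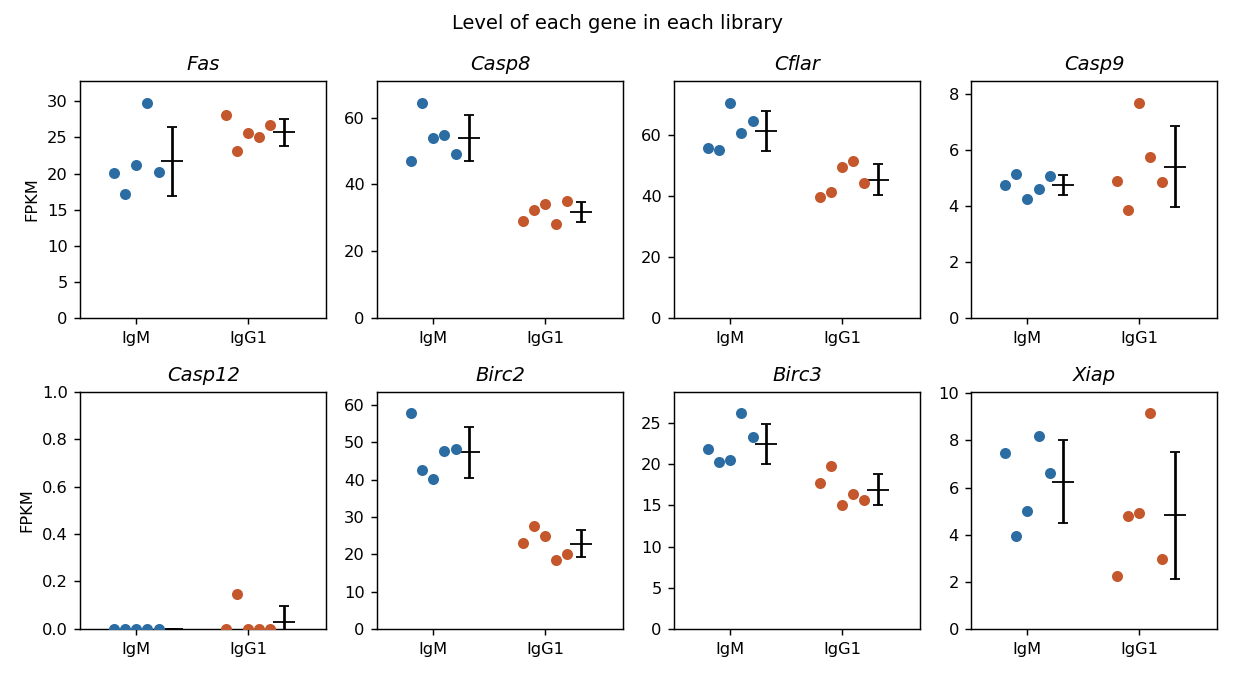
FPKM of each of the 8 genes in each library, with IgM libraries in blue and IgG1 libraries in orange, in order of replicate, and the group mean with its SD (n = 5) beside the points; each panel has its own axis from 0. Birc2, Casp8, Cflar and Birc3 have IgG1 points below all IgM points, while the groups overlap for Fas, Casp9 and Xiap, and Casp12 is at 0 in 9 of 10 libraries.

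Fas, the receptor, was measured at a moderate level in both groups and did not differ beyond the test. Fas (ENSMUSG00000024778, chromosome 19, 34290666 to 34327772, plus strand) stood at 20.0, 17.2, 21.2, 29.8 and 20.3 FPKM in IgM replicates 1 to 5. In the IgG1 replicates it stood at 28.1, 23.1, 25.5, 24.996 and 26.7 FPKM. Every IgG1 value was above 4 of the 5 IgM values, and IgM replicate 4 was above all of them. The means were 21.7 ± 4.78 and 25.7 ± 1.87 FPKM (SD, n = 5 each), with a log2 difference of 0.25 (SE 0.13, 95% interval -0.02 to 0.53, limma adjusted p = 0.132). Without IgM replicate 4 the log2 difference was 0.37 and passed (limma adjusted p = 0.0187), so this library decides the call.

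Casp8, the initiator caspase of the Fas complex, was lower in IgG1 cells. Casp8 (ENSMUSG00000026029, chromosome 1, 58795374 to 58847503, plus strand) stood at 47.0, 64.5, 53.8, 54.9 and 49.1 FPKM in IgM replicates 1 to 5. IgG1 replicates 1 to 5 stood at 29.1, 32.3, 34.3, 28.1 and 35.2 FPKM. The lowest IgM library was thus well above the highest IgG1 library. The means were 53.9 ± 6.78 and 31.8 ± 3.11 FPKM (SD, n = 5 each), a ratio of 1.69, with a log2 difference of -0.74 (SE 0.10, limma adjusted p = 1.36e-05).

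Cflar, which encodes the caspase-8 regulator c-FLIP, was lower in IgG1 cells too, by less. Cflar (ENSMUSG00000026031, chromosome 1, 58711508 to 58758884, plus strand) stood at 55.9, 55.4, 70.8, 60.8 and 64.9 FPKM in IgM replicates 1 to 5. In the IgG1 replicates it stood at 39.7, 41.5, 49.6, 51.6 and 44.6 FPKM. The groups did not overlap, but the highest IgG1 library came close to the lowest IgM library. The means were 61.5 ± 6.47 and 45.4 ± 5.09 FPKM (SD, n = 5 each), a ratio of 1.36, with a log2 difference of -0.43 (SE 0.09, limma adjusted p = 0.00147). With length and GC trends taken out of each library, the log2 difference was -0.22 and no longer passed (limma adjusted p = 0.0867). The products of Casp8 and Cflar bind the same adaptor, so their ratio within a library was also taken. Apart from the pseudocount it does not depend on scaling between libraries, but length and GC trends need not cancel in it. The log2 ratio of Cflar to Casp8, on FPKM plus 1, was 0.25, -0.22, 0.39, 0.14 and 0.39 in the IgM replicates. It was 0.43, 0.35, 0.52, 0.85 and 0.33 in the IgG1 replicates. The IgG1 ratios lay toward the upper end, with an overlap of the groups, and the means were 0.19 ± 0.25 and 0.50 ± 0.21 (SD, n = 5 each). Without IgM replicate 2, the one library where Casp8 exceeded Cflar, the difference of the mean log2 ratios was 0.21 in place of 0.31.

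Birc2 showed the largest difference of the 8 genes, and Birc3, its neighbour and close relative, a smaller one. Birc2 (ENSMUSG00000057367, chromosome 9, 7818227 to 7837064, minus strand), which encodes cIAP1, stood at 57.8, 42.6, 40.3, 47.7 and 48.1 FPKM in IgM replicates 1 to 5. IgG1 replicates had 23.1, 27.6, 24.96, 18.6 and 20.2 FPKM. No IgG1 library reached the level of any IgM library. The means were 47.3 ± 6.76 and 22.9 ± 3.61 FPKM (SD, n = 5 each), a ratio of 2.07, with a log2 difference of -1.02 (SE 0.12, limma adjusted p = 3.02e-06).

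Birc3 (ENSMUSG00000032000, chromosome 9, 7848699 to 7873186, minus strand), which encodes cIAP2, stood at 21.8, 20.3, 20.5, 26.2 and 23.3 FPKM in IgM replicates 1 to 5. Its IgG1 values were 17.8, 19.8, 15.0, 16.4 and 15.6 FPKM. The groups were separated by a narrow gap, between IgG1 replicate 2 and IgM replicate 2. The means were 22.4 ± 2.42 and 16.9 ± 1.90 FPKM (SD, n = 5 each), a ratio of 1.33, with a log2 difference of -0.39 (SE 0.12, limma adjusted p = 0.0143). The log2 ratio of Birc2 to Birc3 within a library was 1.37, 1.03, 0.94, 0.84 and 1.02 in the IgM replicates. It was 0.36, 0.46, 0.70, 0.17 and 0.35 in the IgG1 replicates. Birc2 exceeded Birc3 in every library, and by more in each IgM library than in any IgG1 library (means 1.04 ± 0.20 and 0.41 ± 0.19, SD, n = 5 each). Reads that match both genes could be assigned to either one: of the 3282 windows of 50 bases in the longest Birc2 transcript, 65 also occurred in transcripts of Birc3. In the longest Birc3 transcript, 6 of 2860 windows also occurred in transcripts of another of the 8 genes. Of such windows, 11.9% in Cflar and 7.66% in Birc3 occurred in transcripts of other genes (596 and 162 genes), and 5.05% in Casp8 in those of Gm20257, so these levels carry that uncertainty.

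Xiap, which encodes the inhibitor that binds caspase-9 and the executioner caspases, was low and varied widely between libraries of both groups. Xiap (ENSMUSG00000025860, chromosome X, 42059679 to 42109656, plus strand) stood at 7.48, 3.95, 5.01, 8.19 and 6.62 FPKM in IgM replicates 1 to 5. In the IgG1 replicates it stood at 2.23, 4.81, 4.94, 9.15 and 2.97 FPKM. The highest and the lowest values were both from IgG1 libraries. The log2 difference was -0.39 (SE 0.27, 95% interval -0.96 to 0.17, limma adjusted p = 0.266), as large as that of Birc3 but with more than 2 times its SE. It came to -0.06 with length and GC trends taken out, to -0.21 under quantile normalization and without IgG1 replicate 1, to -0.22 with a pseudocount of 5, and to -0.62 without IgG1 replicate 4.

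Casp9, the initiator caspase of the mitochondrial route, did not differ beyond the test. Casp9 (ENSMUSG00000028914, chromosome 4, 141793612 to 141815976, plus strand) stood at 4.76, 5.13, 4.25, 4.60 and 5.08 FPKM in IgM replicates 1 to 5. Its IgG1 values were 4.89, 3.86, 7.69, 5.75 and 4.87 FPKM. The IgM libraries lay close together inside the wider IgG1 range. The log2 difference was 0.13 (SE 0.18, 95% interval -0.25 to 0.51, limma adjusted p = 0.604). It was 0.01 without IgG1 replicate 3, the highest library, 0.22 without IgG1 replicate 2, 0.02 with length and GC trends taken out, 0.08 with a pseudocount of 5 and 0.32 under quantile normalization, and passed under none of them. The log2 ratio of Xiap to Casp9 ranged from -0.31 to 0.71 in IgM and from -0.87 to 0.59 in IgG1 libraries, which overlapped over most of their range.

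**Figure D2:**
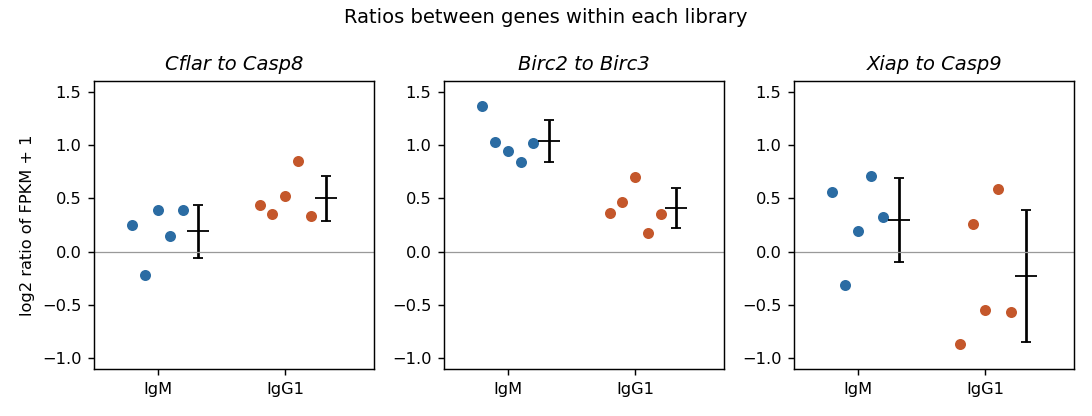
Log2 ratio of FPKM plus 1 between 2 genes within each library, with IgM libraries in blue, IgG1 libraries in orange, and the group mean with its SD (n = 5) beside the points. The ratio of Birc2 to Birc3 is lower in all 5 IgG1 libraries than in any IgM library, while the groups overlap for Cflar to Casp8 and for Xiap to Casp9.

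Casp12, a rodent caspase of the inflammatory group that some studies place at the endoplasmic reticulum, was barely detected. Casp12 (ENSMUSG00000025887, chromosome 9, 5345430 to 5373032, plus strand) was listed at 0 in all 5 IgM libraries and in 4 IgG1 libraries, and at 0.149 FPKM in IgG1 replicate 2. By both depth estimates that library was among the deepest of the 10. No comparison was made for Casp12.

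Since FPKM is per length of transcript, levels can also be set in order within a group. Length and GC trends need not cancel between genes, and sequence shared with other genes adds uncertainty, so the order is approximate. In IgM libraries the order of mean FPKM was Cflar, Casp8, Birc2, Birc3, Fas, Xiap, Casp9 and Casp12. The ranges of Cflar and Casp8, of Casp8 and Birc2, of Birc3 and Fas, and of Xiap and Casp9 overlapped, while Birc2 lay above Birc3 in every IgM library and Fas above Xiap. In IgG1 libraries the order was Cflar, Casp8, Fas, Birc2, Birc3, Casp9, Xiap and Casp12. There the lowest Cflar value lay above the highest Casp8 value, the lowest Casp8 value (28.10 FPKM) all but met the highest Fas value (28.07), and the ranges of Fas and Birc2, of Birc2 and Birc3, and of Casp9 and Xiap overlapped. Fas thus stood below Birc2 and Birc3 in the order of IgM means and above both in that of IgG1 means.

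The 4 genes that differed form pairs of neighbours on the chromosome. Cflar and Casp8 lie on the same strand of chromosome 1 with 36489 bases between them, and Birc2 and Birc3 on the same strand of chromosome 9 with 11634 bases between them. Annotated protein-coding genes within 100000 bases of each pair were looked up, a choice made after the 4 differences were seen. Beside Casp8, Trak2, a kinesin adaptor in mitochondrial transport, averaged 18.6 ± 1.93 FPKM in IgM cells and 6.28 ± 1.46 FPKM in IgG1 cells (SD, n = 5 each; log2 difference -1.45, limma adjusted p = 9.43e-07). On the other side of Cflar, Als2cr12 was near 0. Beside Birc2, the membrane protein gene Tmem123 was at 131 ± 13.2 and 101 ± 4.26 FPKM (SD, n = 5 each; log2 difference -0.37, limma adjusted p = 0.000381), and beside Birc3, Yap1 was near 0. In both places the detected neighbour was lower in IgG1 cells, as were the 2 genes of the pair. Of all tested genes 20.2% were lower, and 2 neighbours are too few to read as a regional pattern.

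Promoter sequences of the 2 pairs are shown because the genes of each pair were lower together while the windows found for them differ in CpG content. RefSeq windows from 250 bases before to 50 after an annotated start (GRCm38.p6) were found for all 8 genes, 11 windows in all, and the Birc2 window shown is that of the more upstream of its 2 annotated starts. The Casp8 window lies inside the gene as GENCODE annotates it, at a start downstream of the gene's first base, so it does not show the most upstream start. Each is written 5′ to 3′ on the strand of the gene, with every CpG in capitals.
Birc2, chr9:7837008-7837307, minus strand: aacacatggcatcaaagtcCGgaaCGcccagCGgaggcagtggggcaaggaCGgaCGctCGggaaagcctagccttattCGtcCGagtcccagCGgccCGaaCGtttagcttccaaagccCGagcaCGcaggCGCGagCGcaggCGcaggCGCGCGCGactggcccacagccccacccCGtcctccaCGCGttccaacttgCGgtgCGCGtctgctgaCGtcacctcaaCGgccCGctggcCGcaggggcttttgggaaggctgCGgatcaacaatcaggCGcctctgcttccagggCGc
Birc3, chr9:7873121-7873420, minus strand: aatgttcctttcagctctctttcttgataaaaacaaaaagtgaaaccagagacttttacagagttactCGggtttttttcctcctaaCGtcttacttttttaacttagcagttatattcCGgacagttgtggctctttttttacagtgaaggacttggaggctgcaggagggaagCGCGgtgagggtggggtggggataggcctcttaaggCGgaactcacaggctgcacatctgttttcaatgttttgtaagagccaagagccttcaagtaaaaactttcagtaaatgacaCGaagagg
Cflar, chr1:58711241-58711540, plus strand: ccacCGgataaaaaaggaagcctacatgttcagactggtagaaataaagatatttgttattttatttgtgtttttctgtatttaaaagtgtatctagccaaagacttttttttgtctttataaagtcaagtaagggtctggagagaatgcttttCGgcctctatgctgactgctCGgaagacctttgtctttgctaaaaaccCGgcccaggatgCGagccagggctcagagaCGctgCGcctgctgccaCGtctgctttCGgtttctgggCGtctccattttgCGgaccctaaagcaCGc
Casp8, chr1:58802252-58802551, plus strand: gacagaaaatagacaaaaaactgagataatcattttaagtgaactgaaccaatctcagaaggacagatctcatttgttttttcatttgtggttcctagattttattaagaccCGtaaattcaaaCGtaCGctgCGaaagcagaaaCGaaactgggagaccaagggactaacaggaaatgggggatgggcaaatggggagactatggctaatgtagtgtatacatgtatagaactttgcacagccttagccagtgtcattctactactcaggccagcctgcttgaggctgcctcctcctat
The Birc2 window held 34 CpG, against 7 in that of Birc3, and the Cflar window held 12, against 5 in that of Casp8. Over 32851 windows of the same length the median was 7, with quartiles of 3 and 20, so Birc2 lay above the upper quartile and the other 3 between the quartiles. Birc2 and Casp8, which differed most between the groups, thus had the richest and the poorest of the 4 windows shown. A relation of CpG content to the differences was not tested, and the other Birc2 window held 21 CpG. The NF-kB consensus was searched on both strands, since Birc3, Cflar and Fas are known targets of that factor. It had no match in these 4 windows, was found in 1 of the 11 windows of the 8 genes, 1 of the 3 of Xiap, and in 8.46% of all windows. A match of letters is not evidence of binding, and none in so short a window says nothing of the factor.

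The pattern of Birc2, the gene with the smallest p of the 8, was compared with all tested genes over the 10 libraries. The 5 genes with the highest Pearson r of log2 values were Rpn1 (0.98), a subunit of the oligosaccharyltransferase complex; Malat1 (0.98), a nuclear long noncoding RNA; Gm37376 (0.98); Fabp3-ps1 (0.98), a pseudogene; and Tspyl2 (0.97), a nuclear protein of the TSPY family. Gm37376 lies within Malat1 on the other strand, and the library kit does not keep strand, so those 2 cannot be told apart. All 5 were lower in IgG1 cells, with log2 differences from -2.75 for Malat1 to -0.16 for Rpn1, so the group difference makes up much of each r. With the group means removed the r with Birc2 was 0.87 for Rpn1, 0.90 for Malat1 and 0.78 for Tspyl2. Malat1 stood at 3726, 3257, 2666, 3498 and 3905 FPKM in IgM replicates 1 to 5 and at 490.4, 717, 581, 383 and 405 FPKM in the IgG1 replicates. Within the IgG1 group, replicates 2 and 3 were the highest and 4 and 5 the lowest for both Birc2 and Malat1. These r were the highest among 9900 genes over 10 libraries that differ in depth as well as in group, and are a description only. Among the 8 genes themselves, Birc2 and Birc3 had an r of 0.44 with the group means removed, Casp8 and Cflar one of -0.12, and Birc2 and Cflar one of -0.50. Other pairs had values larger in size than that of Birc2 and Birc3: Xiap and Cflar (0.50), Birc3 and Fas (0.46), and Casp9 and Birc3 (-0.57).

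Other genes of the pathway were read from 7 lists with 59 genes, of which 44 were tested. Of these, 7 were higher and 11 lower in IgG1 cells and 26 did not pass (limma adjusted p under 0.05), with a median log2 difference of 0.01, beside -0.05 over all tested genes. These shares are near those over all tested genes, of which 38.3% passed, 18.1% as higher and 20.2% as lower, so the counts of the lists say little of apoptosis genes as a group. Quantile normalization gave 11 higher and 8 lower.

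Few death ligands and receptors other than Fas were detected. Of 9 listed genes, 2 were tested and 1 passed. Tnfrsf1b, the TNF receptor without a death domain, averaged 2.40 ± 0.930 FPKM in IgM cells and 4.67 ± 0.941 FPKM in IgG1 cells (SD, n = 5 each; log2 difference 0.78, limma adjusted p = 0.0141). That call ended without the filter on low values (adjusted p = 0.0749). The Fas ligand gene Fasl was listed at 0 in 9 libraries, and Tnfrsf1a, the TNF receptor with a death domain, in 8.

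Of 16 adaptors and ubiquitin regulators of the receptor complexes, all tested, 4 were lower in IgG1 cells, 1 was higher and 11 did not pass, beside 20.2% lower and 18.1% higher over all tested genes. Tnfaip3, the NF-kB inhibitor A20, was at 5.44 ± 1.65 and 1.81 ± 0.871 FPKM (SD, n = 5 each; log2 difference -1.21, limma adjusted p = 0.00108). Traf1, an adaptor that binds cIAP1 and cIAP2 through TRAF2, was at 8.84 ± 2.51 and 3.67 ± 1.12 FPKM (log2 difference -1.07, limma adjusted p = 0.000502). Sharpin, a subunit of the linear ubiquitin ligase, was at 31.8 ± 6.88 and 17.1 ± 1.74 FPKM (log2 difference -0.84, limma adjusted p = 8.33e-05). Cyld, a deubiquitinase that removes such chains, was at 26.1 ± 1.27 and 17.5 ± 1.68 FPKM (log2 difference -0.55, limma adjusted p = 0.000405), a difference that came to -0.29 with length and GC trends taken out (adjusted p = 0.0358). The 1 higher gene, Daxx, was at 17.3 ± 1.16 and 23.3 ± 3.57 FPKM (log2 difference 0.40, limma adjusted p = 0.0164), and its call ended without the filter and with length and GC trends removed (adjusted p = 0.061 and 0.3). Fadd, the adaptor that joins Fas to caspase-8, was low, at 1.27 ± 0.342 and 1.71 ± 0.391 FPKM, and did not pass (adjusted p = 0.376).

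Of 7 other caspase genes 6 were tested, 2 were lower in IgG1 cells and 4 did not pass, too few to set against the 20.2% lower and 18.1% higher over all tested genes. Casp2, an initiator caspase activated on the PIDDosome, was at 17.2 ± 2.32 and 11.8 ± 2.32 FPKM (SD, n = 5 each; log2 difference -0.51, limma adjusted p = 0.00927). Casp4, a caspase of the inflammatory group that binds cytosolic lipopolysaccharide, was at 11.1 ± 1.26 and 6.71 ± 2.87 FPKM (log2 difference -0.77, limma adjusted p = 0.0335). The Casp4 call ended under 9 of 21 alternatives, among them leaving out IgM replicate 2, 3, 4 or 5 or IgG1 replicate 4 (adjusted p = 0.0591 to 0.0725). Without IgG1 replicate 1, its lowest library at 2.05 FPKM, the Casp4 log2 difference was -0.46 and still passed (adjusted p = 0.0332).

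On the mitochondrial side the values went both ways. Of 8 genes of the apoptosome and of released proteins, 7 were tested, 1 was higher, 1 lower and 5 did not pass. Cycs, cytochrome c, was at 122 ± 7.21 and 163 ± 6.48 FPKM (SD, n = 5 each; log2 difference 0.41, limma adjusted p = 2.38e-05). Htra2, a released protease that binds inhibitors of apoptosis, was at 55.2 ± 3.26 and 44.3 ± 6.49 FPKM (log2 difference -0.32, limma adjusted p = 0.0145), and its call ended without the filter (adjusted p = 0.0769), while the difference was -0.59 with length and GC trends taken out. Apaf1, the scaffold of caspase-9, was at 4.96 ± 0.918 and 6.05 ± 2.20 FPKM and did not pass (adjusted p = 0.481), and its log2 difference of 0.20 ranged from 0.06 without IgG1 replicate 4 to 0.39 under quantile normalization.

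Of the 7 other genes with a BIR domain, the domain that Birc2, Birc3 and Xiap share, 2 were tested, 1 higher and 1 lower. Birc5, survivin, which works in chromosome segregation, was at 170 ± 14.2 and 259 ± 16.0 FPKM (SD, n = 5 each; log2 difference 0.61, limma adjusted p = 7.32e-07), the reverse of Birc2 and Birc3. Birc6, a large ubiquitin-conjugating inhibitor, was at 6.03 ± 2.14 and 3.38 ± 0.544 FPKM (log2 difference -0.65, limma adjusted p = 0.0178). The Birc6 call ended without the filter, under quantile normalization, with length and GC trends removed and without IgM replicate 5 (adjusted p = 0.0578 to 0.203).

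Substrates and execution factors were also mixed, with 2 higher, 3 lower and 4 not passing of 9 genes. Bid, the BH3-only protein cut by caspase-8, was at 23.3 ± 4.60 and 33.0 ± 2.46 FPKM (SD, n = 5 each; log2 difference 0.50, limma adjusted p = 0.00516). Dffa, the inhibitor of the caspase-activated DNase, was at 11.0 ± 0.972 and 16.4 ± 3.05 FPKM (log2 difference 0.53, limma adjusted p = 0.00605). Rock1, a kinase activated by caspase cleavage, was at 19.3 ± 3.39 and 12.1 ± 1.18 FPKM (log2 difference -0.62, limma adjusted p = 0.00138), Acin1 at 8.76 ± 0.735 and 5.59 ± 0.622 FPKM (log2 difference -0.57) and the gasdermin Gsdme at 2.50 ± 0.673 and 1.02 ± 0.380 FPKM (log2 difference -0.79). With length and GC trends removed, the calls of Dffa, Rock1 and Gsdme ended (adjusted p = 0.0593, 0.0658 and 0.0703), and under quantile normalization that of Gsdme (adjusted p = 0.0594). Of 3 necroptosis genes 2 were tested, and Zbp1, a nucleic acid sensor, was higher, at 98.6 ± 8.48 and 117 ± 11.2 FPKM (log2 difference 0.25, limma adjusted p = 0.0172), a call that ended under 6 of 21 alternatives, among them leaving out IgM replicate 4 or IgG1 replicate 5 (adjusted p = 0.0562 and 0.0531).

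**Figure D3:**
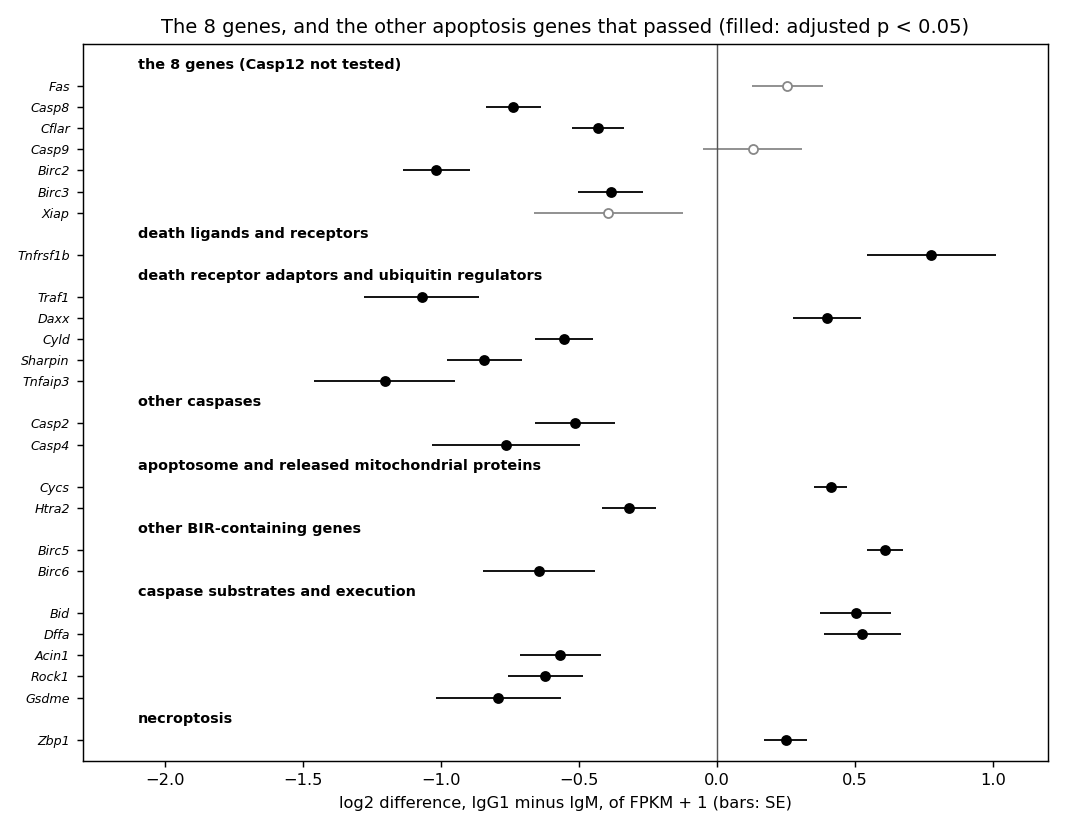
Log2 difference in FPKM plus 1, IgG1 minus IgM, of the 7 tested genes of the 8 and of the 18 genes of the 7 other lists that passed, with bars for the SE; filled points passed at an adjusted p under 0.05 over all 9900 genes. Birc2, Casp8, Cflar and Birc3 are filled on the lower side, and the other lists have 7 points on the higher and 11 on the lower side.

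The calls of Birc2, Casp8 and Birc3 held under all 21 other settings tried. The log2 difference of Birc2 ranged from -1.09 to -0.91, that of Casp8 from -0.79 to -0.67 and that of Birc3 from -0.44 to -0.31. Birc3 came closest to the threshold, with an adjusted p of up to 0.0477 when IgM replicate 4 was left out. The Cflar call held under 20 of 21 settings, ending only where length and GC trends were taken out, and Fas passed under 1 of 21. Xiap and Casp9 passed under none of the 21.

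**Figure D4:**
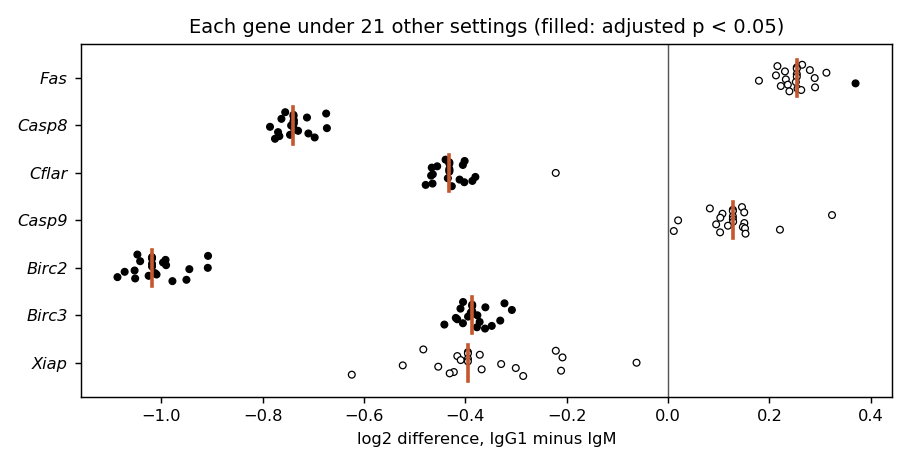
Log2 difference, IgG1 minus IgM, of the 7 tested genes under each of 21 other settings (points, filled where the adjusted p was under 0.05) and in the test as reported (orange bar). Points of Birc2, Casp8 and Birc3 are all filled, Cflar has 1 open point at -0.22, Fas has 1 filled point at 0.37, and no point crosses 0.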

How the data were processed

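Per the labels, RNA from the sorted cells was isolated by miRNeasy Micro, and cDNA libraries used SMART-Seq mRNA HT LP reagents, which amplify whole transcripts and keep no strand. HISAT2 2.1.0, Cufflinks 2.2.1, Cuffdiff and build GRCm38 are named in the submitters' processing notes, with no settings or annotation release. The authors deposited 1 table of FPKM per library, per the file headers. FPKM is a share of the library, so a change in very abundant immunoglobulin transcripts can move all other values. No count test was run on these values.

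Of 47719 identifiers, 47305 matched GENCODE M21. Genes averaging 1 FPKM or more were tested with limma 3.58.1 in R 4.3.3, two-sided, after adding a pseudocount of 1 and taking log2, which understates the change of low genes. Group was the sole term, the variance moderation was trended and robust, and p-values were adjusted by Benjamini-Hochberg at 0.05. Python 3.11.15 with pandas 2.3.3, numpy 2.4.6 and matplotlib 3.10.9 made tables and plots. The fit was tested on simulated data.

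Depth was estimated from the FPKM steps of genes with 1 transcript, assuming fragments of 200 bases. A second estimate, from ratios of such steps between libraries, was scaled to the first in IgM replicate 1. The 2 differed by at most 3.87% but rest on the same steps, so their closeness does not check the depth. Depth limits precision here, and no counting interval can be given.

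The 8 genes and the pathway lists were chosen with earlier results of these data known. Named were the 8 genes, up to 4 genes of each list by smallest p among those that passed, and the 5 genes most like the leading one. Daxx, Gsdme, Apaf1, Fadd, Fasl, Tnfrsf1a and the chromosomal neighbours were added after their values were seen. Alternatives were other pseudocounts, filters, scalings, variance settings, a replicate block, removal of length and GC trends (splines with 4 degrees of freedom per library, on the longest transcript), and each library left out. The labels give no batch. Some genes of the lists are not reported here.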

Additional observations from a re-analysis of the deposited data

Results flagged for a closer look

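Of 22 groups of 5 values looked at (the 8 genes and 3 ratios in each group of libraries), 1 had a library set apart from the rest. Casp12 was listed at 0.149 FPKM in IgG1 replicate 2 and at exactly 0 in the other IgG1 libraries. Any value above 0 would have been set apart from 4 values of 0, so the usual chance of about 1 in 20 groups does not apply, and nothing is read from it.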

How the results depend on the processing

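Over 21 other settings the number of the 8 genes that passed was 4, except 3 with length and GC trends removed and 5 without IgM replicate 4. All 7 tested genes kept their direction under each. The count over all genes was 2818 of 24060 tested without a filter and between 3252 and 3832 under the rest, against 3792 of 9900 as reported. The 3252 were of 6865 genes tested with a filter at 5 FPKM. The count over the other apoptosis lists was 12 of 56 tested without a filter and 14 of 34 with a filter at 5 FPKM. It was 13 of 44 with length and GC trends removed and 16 to 19 under the rest, against 18 of 44 as reported. Rpn1 turned from -0.157 to 0.0533 on the log2 scale under quantile normalization, and the cause was not tested. The deviations of same-numbered libraries correlated between -0.04 and 0.10. Such values cannot decide if same-numbered libraries came from the same mice, which the labels do not say. With the number as a replicate block 3701 genes passed, 4 of the 8 genes and 18 of the other apoptosis genes, as without the block. IgM replicates 1, 3 and 4 correlated best with their own number and replicates 2 and 5 did not. With each library left out in turn, the difference in the log2 ratio of Birc2 to Birc3 ranged from -0.70 to -0.55, that of Cflar to Casp8 from 0.21 to 0.36 and that of Xiap to Casp9 from -0.73 to -0.36. The ratios were not taken with length and GC trends removed, and such trends need not cancel between genes. With them removed the log2 differences were -0.06 for Xiap and 0.02 for Casp9. Those of Cflar and Casp8 were then -0.22 and -0.74, and those of Birc2 and Birc3 were -0.91 and -0.38. A pseudocount of 5 shrank the log2 differences of low genes by over 1.5 times, to 0.39 for Tnfrsf1b, -0.67 for Traf1, -0.61 for Tnfaip3, -0.50 for Casp4, -0.38 for Birc6 and Acin1, -0.31 for Gsdme and -0.86 for Fabp3-ps1, and all of these calls held.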
